A study of Mus musculus with 5 samples.

Results

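The alpha and beta tubulin isotypes described here are 10 genes, 4 alpha (Tuba1a, Tuba1b, Tuba1c, Tuba4a) and 6 beta (Tubb2a, Tubb2b, Tubb3, Tubb4b, Tubb5, Tubb6), of 54699 genes in the deposited expression table. They were chosen by gene name, with their levels in these libraries already known, so every level and difference below is a description without a test. RNA was sequenced from B16F10, a pigmented mouse melanoma cell line, in 5 libraries with 1 library per group. Lentivirus was used for forced expression of Myod1, a transcription factor that starts skeletal muscle differentiation, or of Pparg, a nuclear receptor of fat cell differentiation, and these cultures were collected on day 8 beside a control infected with the empty expression vector. For Setdb1 knockdown a lentiviral short hairpin RNA targeted Setdb1, a histone H3 lysine methyltransferase, and the culture was collected on day 7 beside a control infected with the empty knockdown vector. All 5 cultures therefore went through lentiviral infection, and the genotype of both control groups is labelled wild type. The promoters of the vectors and the clonality of the cultures are not given in the sources used here. The 2 expression groups share their control library. With 1 library per group the differences could not be checked against replicates or tested.

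Microtubules are hollow polymers of heterodimers of alpha and beta tubulin, and each kind of subunit is encoded by a family of genes called isotypes. The isotype proteins are alike over most of their length and differ mainly in an acidic tail at the C terminus, which lies on the outside of the microtubule and is where motors, microtubule-binding proteins and modifying enzymes act. Tuba1a, Tuba1b and Tuba1c encode the broadly expressed alpha tubulins, Tubb5 and Tubb4b are common in dividing cells, Tubb3 is widely used as a marker of neurons, and Tubb2a and Tubb2b are abundant in brain. Cells differentiating into muscle rebuild a radial microtubule array into long parallel bundles, and Tubb6 is known to be high in regenerating muscle fibres.

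The ends of the coding sequences show what sets the isotypes apart. The last 60 coding bases before the stop codon were read from GENCODE release M21 transcripts (build GRCm38) and are given 5′ to 3′ on the coding strand. Tuba4a is shown because it is known as an alpha isotype whose coding sequence ends without a codon for tyrosine. Tyrosine is the residue that is removed and put back in the tyrosination cycle.
Tuba4a: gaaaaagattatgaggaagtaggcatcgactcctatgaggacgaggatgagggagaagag
Its last codon was gag, which encodes glutamate. For 5 beta isotypes capitals mark the codons for the acidic residues glutamate and aspartate.
Tubb5: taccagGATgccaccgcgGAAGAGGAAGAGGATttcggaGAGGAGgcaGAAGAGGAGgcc
Tubb4b: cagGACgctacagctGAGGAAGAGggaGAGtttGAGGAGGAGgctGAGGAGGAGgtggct
Tubb3: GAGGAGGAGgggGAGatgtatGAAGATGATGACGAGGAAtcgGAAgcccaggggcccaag
Tubb2a: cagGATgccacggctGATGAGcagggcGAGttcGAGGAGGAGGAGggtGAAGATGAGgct
Tubb2b: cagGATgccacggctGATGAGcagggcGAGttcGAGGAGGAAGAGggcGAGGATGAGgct
Each of these 5 tails held 11 acidic codons among 20, in a different arrangement except in Tubb2a and Tubb2b, which differed at 3 of 60 bases. Over the whole coding sequence Tuba1a was 98.3% identical to Tuba1b and 97.1% to Tuba1c, against 84.7% to Tuba4a. Among the 15 pairs of beta isotypes identity ran from 80.2% (Tubb5 with Tubb6) to 96.5% (Tubb2a with Tubb2b).

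This likeness bears on the counts, because how the authors' counting treated reads that match several genes is not given in the sources used here. Of the 100-base windows of the longest coding transcript, 73.0% in Tuba1b, 65.8% in Tuba1a and 53.4% in Tuba1c also occur in a transcript of another gene. For Tubb2a the share was 36.9%, for Tubb2b 27.7% and for Tubb4b 30.6%, while Tubb3, Tubb5 and Tubb6 had 0 shared windows. Tuba4a shared 46.7%, all with Stk16, which lies on the opposite strand and overlaps it by 1379 bases. The FPKM of Stk16 lay between 13.1 and 19.2 in the 5 libraries, and whether strand was used in counting is not given in the sources used here. Values of Tuba1a, Tuba1b, Tuba1c, Tubb2a, Tubb2b, Tubb4b and Tuba4a are therefore uncertain by the reads that could fall to another gene, and sums over near-identical members are given below. Tubb3 lies within Gm20388, a gene model on the same strand that overlaps it by 10592 bases and is listed at 0 in all 5 libraries.

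The libraries held between 16214802 and 18300670 reads assigned to genes, and the 10 tubulin genes took between 0.373% (Setdb1 knockdown) and 0.759% (empty expression vector control) of them. Expression is in FPKM (fragments per kilobase of a gene, on a scale shared between the libraries), so that levels of different isotypes can be compared within a library. Differences are log2 ratios of FPKM + 1 between a treated library and its control, and 2-fold means a log2 ratio of at least 1 in size. Each interval is a 95% Wilson interval for the fraction of reads on that gene and covers counting error only. All 10 isotypes were among the 12842 genes that reached an FPKM of 1 in some library and were compared. Setdb1 itself had an FPKM of 0.867 in the knockdown library against 9.82 in its control, and Myod1 and Pparg were detected only in the library made to express them, at an FPKM of 260 and 44.4. The melanocyte identity of the line was seen in its markers: all 8 (Mitf, Tyr, Tyrp1, Dct, Pmel, Mlana, Sox10, Slc45a2) had reads in every library, with a summed FPKM of 3306 with Myod1 expression, 2308 with Pparg expression and between 7816 and 9098 in the other 3. At least 2-fold lower were 5 of them with Myod1 expression and 6 with Pparg expression, where 7.55% and 2.30% of all genes compared were. With Setdb1 knockdown 2 of them, Mitf (-1.54) and Slc45a2 (-1.49), were at least 2-fold lower, where 10.3% of all genes compared were.

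In the control cells the tubulin pool rested mainly on Tuba1b and Tubb5. In the empty expression vector control Tubb5 had an FPKM of 1015 (interval 1007 to 1024) and Tuba1b of 988 (977 to 999), at ranks 27 and 28 among all genes. They were followed by Tuba1a at 383, Tubb4b at 283, Tuba1c at 211, Tubb3 at 202, Tubb6 at 120, Tuba4a at 46.1, Tubb2a at 12.5 and Tubb2b at 1.49. In the empty knockdown vector control Tuba1b stood first at 937 and Tubb5 second at 860, and the other 8 isotypes kept that order. Each neighbouring pair in these orders was separated beyond its counting intervals, except Tuba1c (206 to 215) and Tubb3 (197 to 207) in the empty expression vector control. All 10 isotypes were lower in the empty knockdown vector control than in the other control. The log2 ratios ran from -0.07 (Tuba1c) to -0.75 (Tubb3), and none reached 2-fold. Their median was -0.31, and that of all genes compared was -0.003. Over all genes compared, 2.67% differed at least 2-fold between the 2 controls, which also differ in vector and day.

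**Figure D1:**
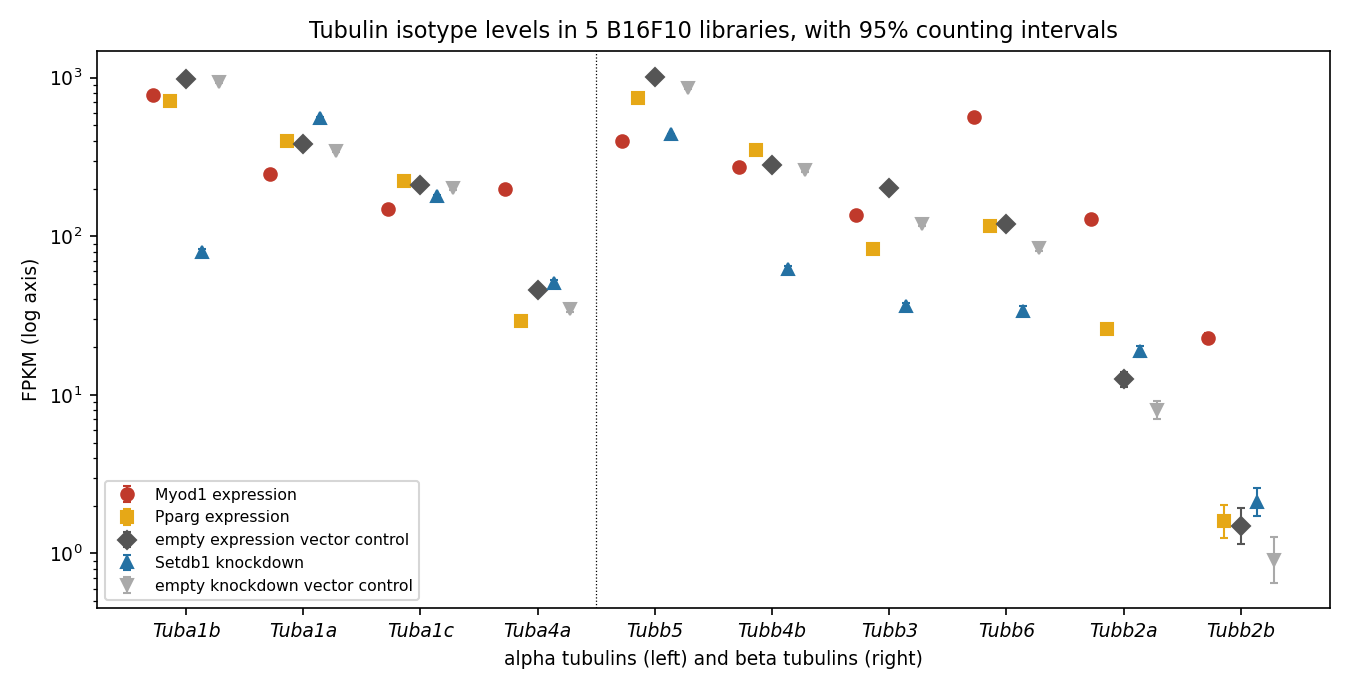
FPKM (log axis) of the 4 alpha isotypes (left) and 6 beta isotypes (right) in the 5 libraries, 1 point per library, with 95% counting intervals that are mostly smaller than the points. The Myod1 expression library stands apart at Tuba4a (199), Tubb6 (566), Tubb2a (129) and Tubb2b (23.0), and the Setdb1 knockdown library at Tuba1b (80.2) and Tubb4b (62.1).

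With Myod1 expression the mix of beta tubulins differed from the control, while their sum was close to it on the deposited scale. Tubb6 had an FPKM of 566 (557 to 575) with Myod1 expression, 116 with Pparg expression, 120 in the empty expression vector control, 34.0 with Setdb1 knockdown and 84.4 in the empty knockdown vector control. The Myod1 value was the highest of the 5 and lay 4.70-fold above its control, a log2 ratio of 2.22. Tubb6 thereby passed Tubb5 and became the first of the beta isotypes in this library. It made up 37.0% of summed beta-tubulin FPKM, against 7.36% in the control.

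Tubb2a and Tubb2b, neighbours on chromosome 13 with 48740 bases between them, stood much higher in the same library. Tubb2a (chromosome 13, 34074274 to 34078007) had an FPKM of 129 (125 to 134) with Myod1 expression, 25.9 with Pparg expression, 12.5 in the empty expression vector control, 18.8 with Setdb1 knockdown and 8.02 in the empty knockdown vector control. The Myod1 value was 10.3-fold that of its control, a log2 ratio of 3.27. Tubb2b had an FPKM of 23.0 (21.4 to 24.6) with Myod1 expression, 1.59 with Pparg expression, 1.49 in the empty expression vector control, 2.12 with Setdb1 knockdown and 0.912 in the empty knockdown vector control. Outside the Myod1 library Tubb2b rested on 35 to 90 reads, and the 3 higher of those values had overlapping intervals. The Myod1 value was 15.4-fold that of its control, a log2 ratio of 3.26. The summed FPKM of both genes was 152 against 14.0, or 10.9-fold. Their summed reads (4105 against 385), which do not depend on how reads were split between them, gave 11.1-fold on the authors' library scale. On the same scale their summed reads were 1.93-fold the control with Pparg expression and 2.34-fold with Setdb1 knockdown, but 3.02-fold and 1.49-fold against the other control.

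Tuba4a (chromosome 1, 75214228 to 75219865) was the alpha isotype with a large difference. It had an FPKM of 199 (196 to 203) with Myod1 expression, 29.1 with Pparg expression, 46.1 in the empty expression vector control, 51.0 with Setdb1 knockdown and 34.8 in the empty knockdown vector control. The Myod1 value was the highest of the 5 and lay 4.32-fold above its control, a log2 ratio of 2.09. Its overlapping neighbour Stk16 had an FPKM of 17.8 in that library against 13.1 in the control. Tuba4a, whose coding sequence above ends without a tyrosine codon, made up 14.5% of summed alpha-tubulin FPKM, against 2.83% in the control.

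Against this, Tubb5 was lower with Myod1 expression. Its FPKM was 400 (395 to 406) with Myod1 expression, 746 with Pparg expression, 1015 in the empty expression vector control, 439 with Setdb1 knockdown and 860 in the empty knockdown vector control. The Myod1 and Setdb1 libraries were the low ones. The difference from the control was a log2 ratio of -1.34 with Myod1 expression, and the share of Tubb5 among beta tubulins went from 62.1% to 26.2%. The other 5 isotypes differed by less than 2-fold: Tuba1a (-0.63), Tubb3 (-0.57), Tuba1c (-0.50), Tuba1b (-0.35) and Tubb4b (-0.05). Tubb3 had the opposite sign against the other control (0.18), as did Tubb4b (0.07).

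In all, 4 of the 10 isotypes were at least 2-fold higher with Myod1 expression, where 14.0% of all genes compared were, and 1 was at least 2-fold lower, where 7.55% were. The median log2 ratio of the 10 was -0.20 (0.13 against the other control), and that of all genes compared was 0.02. The same 4 and the same 1 passed 2-fold against the other control library, where 15.1% of all genes were higher and 7.51% lower, at log2 ratios of 3.85 (Tubb2a), 3.65 (Tubb2b), 2.73 (Tubb6), 2.48 (Tuba4a) and -1.10 (Tubb5). Summed beta-tubulin FPKM was 1528 against 1634 in the control, 93.5% of it, and 115% of the other control. Summed alpha-tubulin FPKM was 1371 against 1628, or 84.3%. These sums depend on the scaling between libraries. As deposited, the log2 ratio to the control was -0.10 for the beta sum and -0.25 for the alpha sum. With each library divided by its summed FPKM, they were -0.49 and -0.64. The composition of the beta pool differed from the control by 39.4 percentage points (the summed gains in share), against 4.59 points between the 2 controls. For the alpha pool the difference was 11.7 points, against 1.26.

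**Figure D2:**
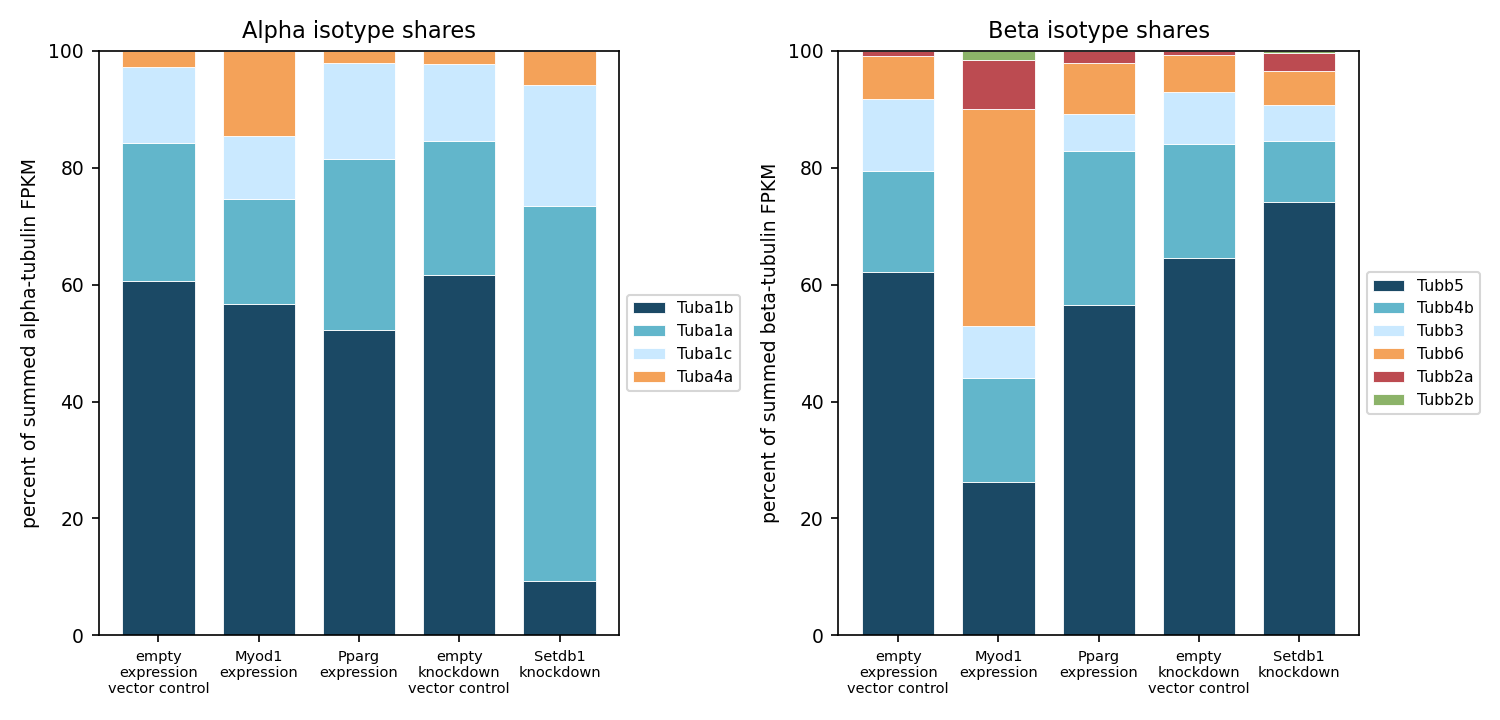
Share of each isotype in the summed FPKM of the alpha isotypes (left) and of the beta isotypes (right), in percent, 1 stacked bar per library. Tubb6 takes 37.0% of the beta bar with Myod1 expression against 7.36% in its control, and Tuba1a takes 64.1% of the alpha bar with Setdb1 knockdown against 22.8% in its control.

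Pparg expression left the isotypes closer to the control. Tubb3, the beta isotype known from neurons, had an FPKM of 82.8 (79.9 to 85.9) with Pparg expression, 136 with Myod1 expression, 202 in the empty expression vector control, 36.1 with Setdb1 knockdown and 119 in the empty knockdown vector control. It was 41.1% of its control, a log2 ratio of -1.27, but its controls themselves differed, and against the other control the ratio was -0.52. Tubb2a was 2.07-fold the control in FPKM, with a log2 ratio of 0.99 that lay just under the limit and was 1.58 against the other control. The remaining isotypes had log2 ratios from -0.65 (Tuba4a) to 0.30 (Tubb4b). So 0 of 10 were at least 2-fold higher, where 4.22% of all genes were, and 1 was at least 2-fold lower, where 2.30% were. Against the other control 1 was higher (5.52% of all genes) and 0 were lower (2.41%). The median of the 10 was 0.00, and of all genes compared -0.02.

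The Pparg pools kept the order of the control at the top. Their composition differed from it by 9.17 percentage points (alpha) and 11.7 points (beta), against 1.26 and 4.59 between the 2 controls. Tubb5 took 56.5% of summed beta-tubulin FPKM against 62.1% in the control, Tubb4b 26.4% against 17.3% and Tubb3 6.27% against 12.3%. In the other control these shares were 64.5%, 19.5% and 8.96%. Tuba1b took 52.2% of the alpha sum against 60.7%, and Tuba1a 29.2% against 23.5%. The alpha sum was 83.8% of the control and the beta sum 80.8%, but 89.8% and 99.0% of the other control.

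With Setdb1 knockdown Tuba1b, the leading alpha tubulin of the controls, was down to a small part of the alpha pool. Tuba1b (chromosome 15, 98931425 to 98934565) had an FPKM of 80.2 (77.3 to 83.2) with Setdb1 knockdown, 776 with Myod1 expression, 712 with Pparg expression, 988 in the empty expression vector control and 937 in the empty knockdown vector control. The knockdown library was far below the other 4, at 8.56% of its control and a log2 ratio of -3.53, the 5th lowest of all 12842 genes compared. Tuba1a (chromosome 15, 98949837 to 98953703), which is separated from Tuba1b by 15271 bases, stood the other way. Its FPKM was 555 (547 to 563) with Setdb1 knockdown, 248 with Myod1 expression, 398 with Pparg expression, 383 in the empty expression vector control and 347 in the empty knockdown vector control. The knockdown value was the highest of the 5 and 1.60-fold that of its control, a log2 ratio of 0.68 that did not reach 2-fold.

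Tuba1c, the third gene of this cluster, stayed close to its control. Its FPKM was 179 with Setdb1 knockdown, 148 with Myod1 expression, 224 with Pparg expression, 211 in the empty expression vector control and 201 in the empty knockdown vector control, and its log2 ratio with Setdb1 knockdown was -0.16. The 3 genes span 106686 bases of chromosome 15. The ratio of Tuba1a to Tuba1b in FPKM was 6.92 with Setdb1 knockdown and between 0.319 and 0.559 in the other 4 libraries. The summed FPKM of the 3 genes was 54.9% of the control. Their summed reads (28874 against 47486), which a different split among the 3 would leave alone, were likewise 54.9% on the authors' library scale. The summed FPKM was 74.1% of the control with Myod1 expression and 84.4% with Pparg expression. Tuba1a took 64.1% of summed alpha-tubulin FPKM (63.6% to 64.6%) against 22.8% in the control, and Tuba1b took 9.27% against 61.7%.

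Some processed pseudogenes share sequence with these isotypes. Gm14150, which shares 31.8% of the windows of Tuba1b, had an FPKM of 1.64 with Setdb1 knockdown against 8.30 in the control (41 and 188 reads). Gm17383, which shares 32.1% of the windows of Tuba1a and 29.1% of those of Tuba1b, had 7.53 against 8.04. Gm3756, which shares 14.0% of the windows of Tuba1a and 11.9% of those of Tuba1b, had 3.23 against 15.3, and 32.4 in the empty expression vector control. Tubb4b-ps1, which shares 27.4% of the windows of Tubb4b, had 0.971 against 3.76 (24 and 84 reads). Their part in the isotype values was not tested. Gm49450, a gene model that overlaps both Tuba1b and Tuba1a on their strand, had an FPKM between 4.32 and 7.25 in the 5 libraries.

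The beta isotypes were mostly lower with Setdb1 knockdown. Tubb4b (chromosome 2, 25222160 to 25224702) had an FPKM of 62.1 (59.7 to 64.6) with Setdb1 knockdown, 273 with Myod1 expression, 348 with Pparg expression, 283 in the empty expression vector control and 260.0 in the empty knockdown vector control. The knockdown library alone was low, at 23.9% of its control and a log2 ratio of -2.05. Tubb3 was 30.2% of its control (-1.70) and Tubb6 40.3% (-1.28), and in both the knockdown library was the lowest of the 5. Tubb5, at 51.0% of its control, had a log2 ratio of -0.97, just under the limit, and of -1.21 against the other control. Tubb2a was the isotype at least 2-fold higher (1.13), but only 0.55 against the other control. Tubb2b had a ratio of 0.71 on 90 reads against 35. In FPKM without the added 1, Tubb2b was 2.32-fold its control and Tubb2a 2.34-fold.

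By count, 4 of the 10 isotypes were at least 2-fold lower with Setdb1 knockdown (Tuba1b, Tubb4b, Tubb3, Tubb6), where 10.3% of all genes compared were, and 1 was at least 2-fold higher, where 9.34% were. Against the other control 5 were lower (11.0% of all genes) and 0 higher (8.72%). The median log2 ratio was -0.57, against 0.00 over all genes compared. Summed beta-tubulin FPKM was 592 against 1333, or 44.4% of the control, and summed alpha-tubulin FPKM was 865 against 1519, or 57.0%. The ratio of the alpha sum to the beta sum was 1.46 in this library and between 0.898 and 1.14 in the other 4. The composition of the alpha pool differed from the control by 52.4 percentage points and that of the beta pool by 12.5. In bulk RNA, fewer cells with a transcript and less of it per cell cannot be told apart.

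**Figure D3:**
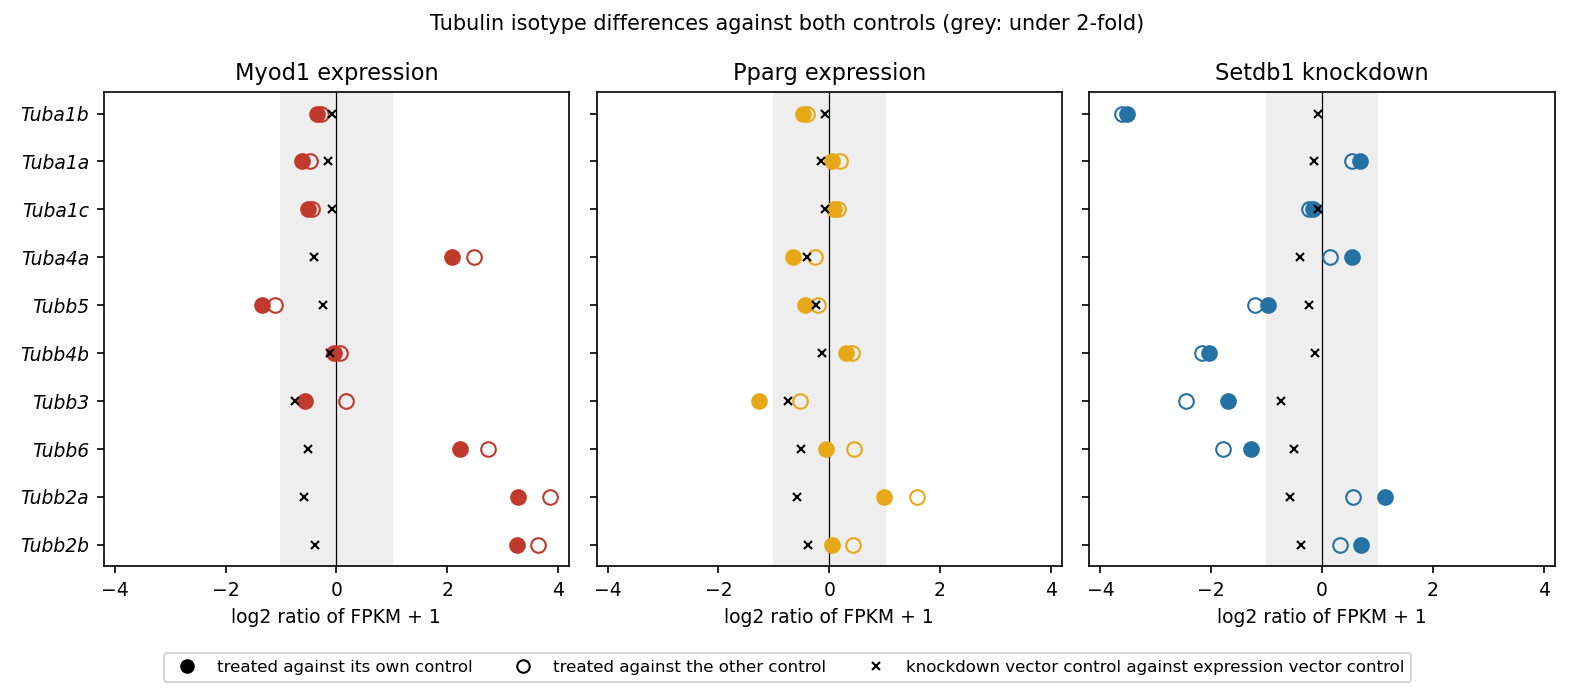
Log2 ratio of FPKM + 1 for each isotype against the library's own control (filled) and the other control (open), with the difference between the controls (crosses) and the range under 2-fold in grey. Tubb6, Tuba4a, Tubb2a and Tubb2b lie beyond 2-fold on the higher side against both controls with Myod1 expression, as do Tuba1b, Tubb4b, Tubb3 and Tubb6 on the lower side with Setdb1 knockdown.

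**Figure D4:**
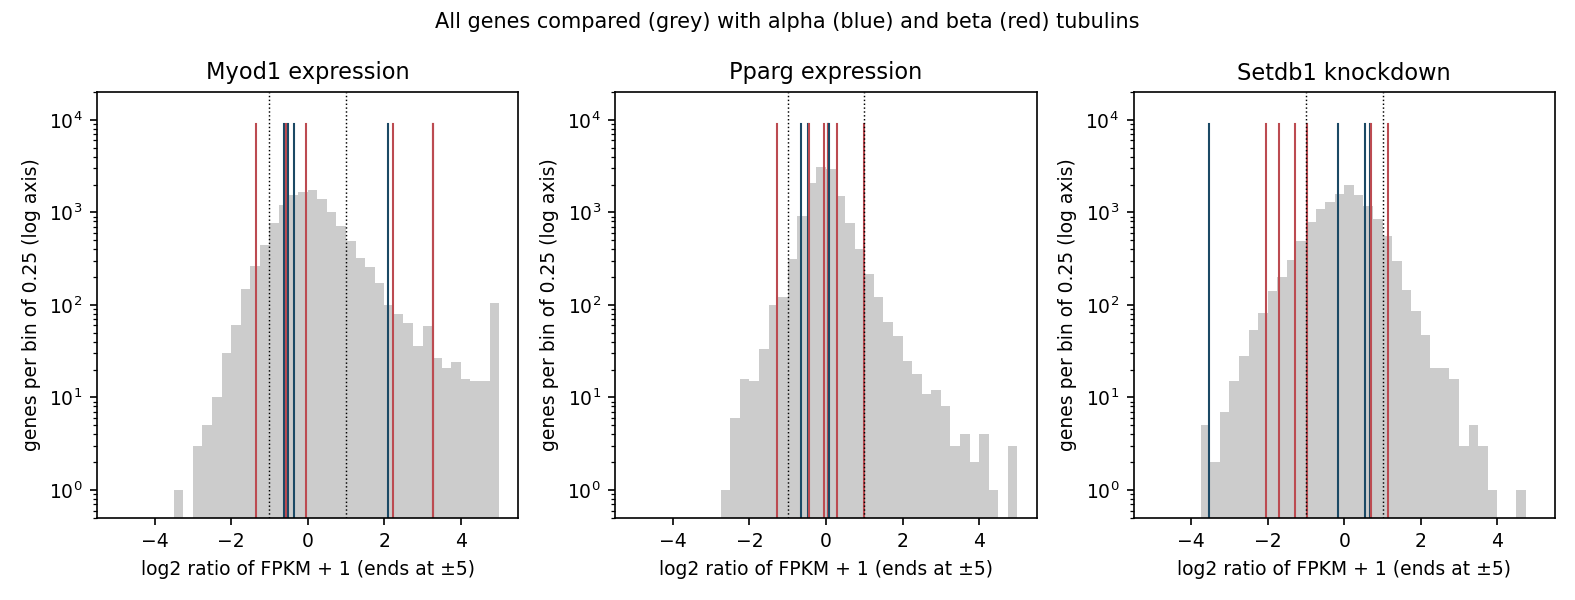
Number of genes (log axis) per 0.25 of log2 ratio for all 12842 genes compared (grey, values beyond ±5 placed in the end bins), with alpha isotypes as blue and beta isotypes as red lines and 2-fold dotted. Tuba1b at -3.53 with Setdb1 knockdown lies at the lower end of all genes, while with Pparg expression the isotypes lie between -1.27 and 0.99.

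The treatments gave different profiles over the same genes. Tubb6 was 4.70-fold its control with Myod1 expression and 40.3% of its control with Setdb1 knockdown. Tuba1b was 78.6% of its control with Myod1 expression and 8.56% with Setdb1 knockdown. Levels over the 5 libraries ranged 25.2-fold for Tubb2b, 16.6-fold for Tubb6, 16.1-fold for Tubb2a and 12.3-fold for Tuba1b, and 1.51-fold for Tuba1c. The Myod1 and Pparg comparisons share their control, so their likeness was not measured.

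Other genes of the tubulin superfamily were few and low, apart from Tubg1, the gamma tubulin that nucleates microtubules, whose FPKM lay between 54.3 and 109. Of 10 further tubulin genes, 5 reached an FPKM of 1 in at least 1 library and could be compared, and 0 of those differed 2-fold in any of the 3 comparisons. Of all genes, 14.0% were higher and 7.55% lower with Myod1 expression, 4.22% and 2.30% with Pparg expression, and 9.34% and 10.3% with Setdb1 knockdown. Tubb4a, known from oligodendrocytes and neurons, reached 1.24 with Setdb1 knockdown (51 reads) against 0.215 (8 reads). Tuba8, known from muscle, heart and testis, had 16 reads with Myod1 expression, 24 with Pparg expression, 6 in the empty expression vector control, 32 with Setdb1 knockdown and 1 in the empty knockdown vector control. Tubb1, the beta tubulin of platelets, had 12 reads with Myod1 expression and at most 3 in the other libraries. Tuba3a and Tubal3 had 0 reads in all 5 libraries.

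Of 26 genes whose products modify tubulin 15 could be compared. With Myod1 expression 4 of the 15 were at least 2-fold higher, where 14.0% of all genes were, and 0 were lower, where 7.55% were. Svbp, the small partner of the vasohibins, had an FPKM of 351 with Myod1 expression, 18.2 with Pparg expression, 15.7 in the empty expression vector control, 27.1 with Setdb1 knockdown and 14.7 in the empty knockdown vector control. Vash2, a vasohibin that with Svbp removes the terminal tyrosine of alpha tubulin, had an FPKM of 37.7, 0.943, 1.62, 0.864 and 1.05 in the same order. Both genes were far higher in the Myod1 library than in the other 4. Their log2 ratios of 4.40 and 3.89 went with 1.70 for Ttll11, a polyglutamylase, and 1.17 for Atat1, which acetylates alpha tubulin. Ttll11 reached an FPKM of 1 in the Myod1 library alone (2.45, at most 0.712 elsewhere). It was therefore among the 15 only through the library in which it was high. Ttl, the ligase that puts the tyrosine back, stood at 0.96 and Vash1 at 0.25. With Setdb1 knockdown Atat1 (1.08, but 0.89 against the other control) and Ttll3 (1.08), a glycylase, were 2-fold higher and Ttll12 (-1.05) lower, where 9.34% of all genes were higher and 10.3% lower. With Pparg expression 0 of the 15 were higher (4.22% of all genes) or lower (2.30%).

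Tubulin folding factors stayed mostly within 2-fold. For this list and the next, the shares of all genes 2-fold higher and lower were 14.0% and 7.55% (Myod1 expression), 9.34% and 10.3% (Setdb1 knockdown), and 4.22% and 2.30% (Pparg expression). Of 21 genes (prefoldin, the CCT chaperonin and the tubulin cofactors) Pfdn5 (1.09) was 2-fold higher and Tbcd (-1.08) lower with Myod1 expression, and the list median was 0.07. With Setdb1 knockdown Arl2 (1.18), a regulator of the cofactors, and Tbcc (1.07) were higher and Tcp1 (-1.03), a CCT subunit, lower, with a median of 0.00. With Pparg expression 0 of the 21 differed 2-fold and the median was -0.15. Pfdn5 and Tbcd with Myod1 expression, and Arl2, Tbcc and Tcp1 with Setdb1 knockdown, were within 2-fold against the other control, where the Myod1 median was -0.21. There Pfdn5 (1.07) was the folding gene 2-fold higher with Setdb1 knockdown, where 8.72% of all genes were higher. Tubulin autoregulation is the decay of tubulin mRNAs when free tubulin is abundant, in which TTC5 recognises the nascent protein and SCAPER recruits the CCR4-NOT deadenylase. Ttc5 stayed within 2-fold, at log2 ratios of 0.32 (Myod1 expression), 0.04 (Pparg) and 0.22 (Setdb1 knockdown). The list medians were -0.34, -0.23 and -0.57 in the same order, with 8, 10 and 9 of the 12 genes below 0. The medians of all genes compared were 0.02, -0.02 and 0.00. Of the 12 genes Cnot6 (-1.14) and Cnot1 (-1.01) were 2-fold lower with Myod1 expression and Cnot6 (-1.26) with Setdb1 knockdown.

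Of genes that bind or stabilise microtubules 21 were compared. The FPKM of Mapre3, the plus-end protein EB3, was 59.9 with Myod1 expression, 7.69 with Pparg expression, 6.11 in the empty expression vector control, 16.8 with Setdb1 knockdown and 3.30 in the empty knockdown vector control, with log2 ratios of 3.10 and 2.05 for Myod1 expression and Setdb1 knockdown. Map7d1 (1.25) and Map7 (1.23), which help kinesin-1 onto microtubules, were also 2-fold higher with Myod1 expression. Ckap5, a microtubule polymerase, was lower in both (-1.77 and -1.69). Of this list 3 genes were higher and 4 lower in the Myod1 comparison, and 1 was higher and 4 lower in the Setdb1 comparison. Of 22 nucleation genes 4 were 2-fold lower with Myod1 expression and 8 with Setdb1 knockdown, led by Tpx2 (-1.66 and -2.10), and 0 were higher. Over all genes compared 7.55% were lower and 14.0% higher with Myod1 expression, and 10.3% lower and 9.34% higher with Setdb1 knockdown. Of 11 compared destabilising and severing genes 1 was lower with Myod1 expression, Kif2c (-1.43). With Setdb1 knockdown Fignl1 (-2.06), Kif2c (-1.83) and Stmn1 (-1.40), which sequesters tubulin dimers, were lower and Stmn4 (1.40) higher. Stmn4 had 58 reads against 0 in the control. It was compared only through the knockdown library, where its FPKM was 1.64 (at most 0.365 elsewhere). With Pparg expression 0 genes of these 3 lists differed 2-fold, where 4.22% of all genes were higher and 2.30% lower. Several of these counts differed against the other control. For binding or stabilising genes 2 were then lower with Myod1 expression and 6 with Setdb1 knockdown, and 2 were higher and 1 lower with Pparg expression. With Myod1 expression 2 nucleation and 2 destabilising genes were then lower, and with Setdb1 knockdown 7 nucleation genes. In these comparisons 7.51% (Myod1) and 11.0% (Setdb1) of all genes were lower, and with Pparg expression 5.52% were higher and 2.41% lower.

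**Figure D5:**
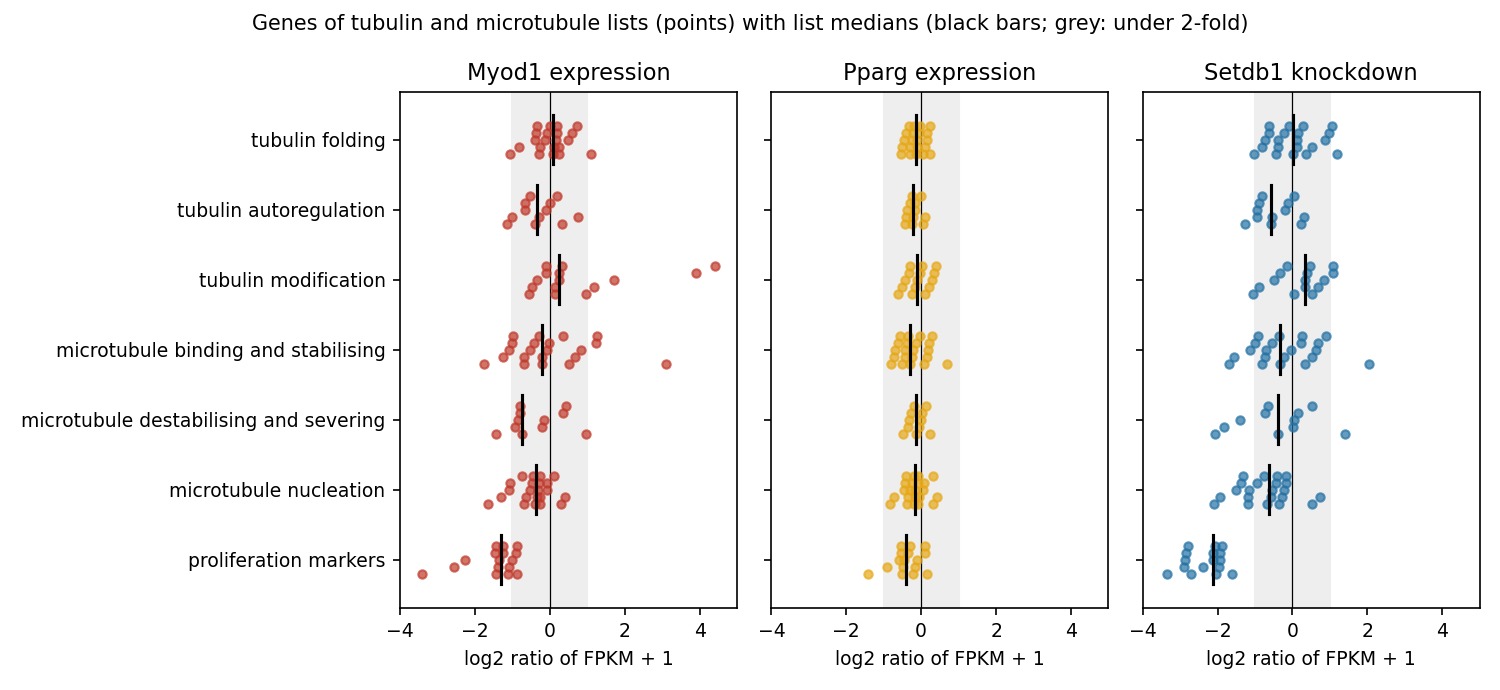
Log2 ratio of FPKM + 1 of each compared gene (points) on 7 lists of tubulin and microtubule genes and of proliferation markers, with list medians (black bars) and the range under 2-fold in grey. Svbp (4.40), Vash2 (3.89) and Mapre3 (3.10) are the high points with Myod1 expression, and all 16 proliferation markers lie below the grey range with Setdb1 knockdown.

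Markers of dividing cells differed alongside some of the isotypes. The summed FPKM of 16 proliferation markers was 1097 in the empty expression vector control, 451 with Myod1 expression and 893 with Pparg expression, and 1155 in the empty knockdown vector control against 242 with Setdb1 knockdown. At least 2-fold lower were all 16 of them with Setdb1 knockdown, 13 in the Myod1 library and 1 in the Pparg library, where 10.3%, 7.55% and 2.30% of all genes were. Against the other control the counts were 16, 15 and 0, where 11.0%, 7.51% and 2.41% of all genes were lower. Tubb5 was lowest in the Myod1 and Setdb1 libraries, as these markers were, whereas Tuba1b and Tubb4b were low in the Setdb1 library and within 2-fold of the control in the Myod1 library. The part of proliferation in these values was not tested.

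Markers of the cell types in which these isotypes are known were read beside them. The 8 skeletal muscle markers summed to an FPKM of 22225 in the Myod1 library and to between 5.46 and 15.1 in the other 4, and Myog and Mymk had 0 reads outside the Myod1 library. Of 14 neuron markers 3 could be compared, and Snap25, Stmn2, Elavl4, Nefm and Nefl had 0 reads in all 5 libraries, while Tubb3 reached an FPKM of 202. Ncam1, which muscle and nerve cells share, was the neuron marker at least 2-fold higher with Myod1 expression (1.60). The others compared were Mapt, at an FPKM between 1.35 and 2.81, and Map2, between 0.174 and 1.54. Their log2 ratios with Myod1 expression were -0.70 and 0.82. The 14 markers summed to an FPKM between 4.37 and 20.5. The 8 adipocyte markers summed to 335 with Pparg expression and to between 0.669 and 2.76 elsewhere. Fabp4 (153) and Cd36 (146) gave most of the Pparg sum. In that library Angptl4 had an FPKM of 18.2, Lipe 15.6 and Plin1 1.25, and Cidec, Adipoq and Cebpa had 9, 2 and 0 reads. Immune markers summed to between 2.96 and 21.3, mostly Cd68, with Cd3e and Ms4a1 at 0 reads throughout, and fibroblast markers to between 2.90 and 11.1, with Dcn, Lum and Thy1 at 0 reads.

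For the 7 isotypes whose level ranged at least 4-fold, the genes with the most similar profile were found by the Euclidean distance between log2(FPKM + 1) values over the 5 libraries, each profile centred on its mean. Nearest to Tuba1b were Gm10282, a predicted pseudogene, at a distance of 0.52, Ywhaz, a 14-3-3 protein, at 0.54, and Cks1b, a cyclin-dependent kinase subunit, at 0.58. Gm10282 shared no 100-base window with Tuba1b. Nearest to Tubb6 were Akt2-ps (0.60), Ndufa6 (0.64) and Obsl1 (0.65), and nearest to Tuba4a Gm3788 (0.44), Jag2 (0.45) and Rilpl1 (0.47). Tubb2a was nearest to Pbxip1 (0.38), Palld (0.50), an actin-binding protein, and Ak1 (0.51), a muscle adenylate kinase. Tubb2b was nearest to Slpi (0.26), Afap1l1 (0.28) and Galr3 (0.28), Tubb3 to Pmp22 (0.29), mt-Co2 (0.30) and Acsl3 (0.33), and Tubb4b to Slc25a10 (0.25), Gm4735 (0.32) and Gm9816 (0.34). With 5 points per profile these distances describe the libraries and rank no relation.

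Promoter sequences were available for 8 of the 10 isotypes (RefSeq, build GRCm38.p6), and not for Tubb2b and Tubb6. The 250 bases before the start annotated in RefSeq were searched on both strands for 3 motifs. They were CCAAT (the box bound by NF-Y), TTTGAA (the cell cycle homology region) and CAGCTG (an E-box of the kind MyoD binds). These do not overlap each other's letters in any match below. Starts differ between annotations: the Tuba4a window lay wholly within the gene as deposited. The windows of Tuba1a, Tuba1b, Tubb3 and Tubb5 reached into theirs, so not all of the searched sequence is upstream there. CCAAT was found in 5 of the 8, against 33.8% of all 32851 promoters. TTTGAA was found in 1 (5252 of all 32851 promoters) and CAGCTG in 1, Tuba1b (13.0% of all). Tubb4b, which was low with Setdb1 knockdown alone, held 5 CCAAT boxes and the TTTGAA match, whereas Tuba1b, which was low with Setdb1 knockdown as well, held neither. Its promoter is printed with these in capitals (chr2:25224703-25224952, minus strand, 5′ to 3′ along the gene), beside that of Tubb2a (chr13:34078009-34078258, minus strand), which was highest with Myod1 expression and in which none of the 3 motifs was found.
Tubb4b: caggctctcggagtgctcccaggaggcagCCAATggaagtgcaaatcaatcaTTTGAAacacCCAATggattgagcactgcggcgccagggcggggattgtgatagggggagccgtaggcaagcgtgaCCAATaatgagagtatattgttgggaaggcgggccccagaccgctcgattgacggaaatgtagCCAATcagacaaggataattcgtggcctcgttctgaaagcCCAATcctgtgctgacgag
Tubb2a: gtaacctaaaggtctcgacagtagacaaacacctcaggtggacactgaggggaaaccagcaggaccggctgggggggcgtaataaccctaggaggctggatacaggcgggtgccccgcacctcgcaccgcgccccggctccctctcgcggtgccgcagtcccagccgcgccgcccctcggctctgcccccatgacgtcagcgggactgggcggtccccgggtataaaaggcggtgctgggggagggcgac
A match describes letters in this window and is not shown to be a site of binding.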

How the data were processed

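Expression came as FPKM in 1 table that the authors deposited, with 1 column per library. Per the submitters' processing notes, CASAVA, HISAT2, featureCounts 1.5.0-p3 and build GRCm38 were used; counting options are not given in the sources used here. Per the labels' protocols, TRIzol was used for RNA extraction and a NEBNext Ultra RNA kit for the libraries. FPKM times gene length were whole multiples of 1 step in 100% of values above 0 (tolerance 0.01 reads), which gave back reads per gene. The number the authors divided by was 0.859 to 1.10 times the recovered reads, so the deposited FPKM were already scaled between libraries. Log2 ratios use a pseudocount of 1 and genes that reached an FPKM of 1 in some library; recovery of reads and the 2-fold calls were checked on simulated data.

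Isotype shares are FPKM over the summed FPKM of the alpha or beta members, with intervals from read counts by the delta method. Shared windows, coding identity and GC content come from GENCODE M21, in which 98.3% of shared gene identifiers had the deposited positions (9 of the 10 isotypes), and promoters from RefSeq. Members and the 14 lists (198 entries) were chosen with earlier results of these data known. Named genes are the isotypes, other tubulin genes, markers, the targeted genes and the 3 nearest profiles with a symbol. Of each list, at most 3 genes per direction past 2-fold were taken from each comparison (Atat1 from Setdb1 knockdown). Gm14150, Gm17383, Gm3756, Gm20388, Gm49450 and Stk16 for shared sequence or overlap, and Ttc5, Ttl and Vash1, were named after their values were seen. Python 3.11.15, pandas 2.3.3, numpy 2.4.6 and Biopython 1.88 were used. Some sequences are not reported here.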

Additional observations from a re-analysis of the deposited data

How the results depend on the processing

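No paired analysis was possible because each group has 1 library, and for the same reason no replicate could be left out. The alternatives were a pseudocount of 0.1, the column sum as divisor, median centring, 75th percentile scaling, use of the other control, a 4-fold limit, no filter and a mean FPKM of at least 1. Removal of the trend with GC content was chosen after seeing the data. The 2 filters cannot change an isotype's own ratio. Under the others 11 ratios of single isotypes newly passed the limit, 8 no longer did and 4 under the limit changed sign. With Myod1 expression the 4 isotypes at least 2-fold higher passed 2-fold under all of these settings. At the deposited scale they also passed 4-fold, which Tuba4a missed with the column sum (1.70), the 75th percentile (1.90) and the GC trend removed (1.93), and Tubb6 with the column sum (1.83). Shares of the pools were also computed from reads not divided by length, where 23 of 30 differences moved beyond their counting interval (Tuba4a with Myod1 expression from 11.7 to 19.4 points) and 0 changed sign, and over pools of all tubulin genes, where 30 of 30 stayed within it. Against the other control 21 moved, among them the Tubb3 share with Myod1 expression from -3.46 to -0.09 points, 8 stayed within the interval and 1 changed sign. The 1 lower isotype became 2 under the column sum, where Tuba1a reached -1.02, and 0 at 4-fold. The summed beta-tubulin ratio was 0.20 against the other control, and the Tubb4b share difference with Myod1 expression went from 0.59 to -1.61 percentage points there. With Pparg expression 1 isotype in place of 0 was 2-fold higher (Tubb2a, 1.01 to 1.58) with a pseudocount of 0.1, the column sum, centring, the 75th percentile and the other control. The 1 lower isotype (Tubb3) became 0 against the other control and at 4-fold. With Setdb1 knockdown the 1 higher isotype became 2 with a pseudocount of 0.1 and 0 against the other control, at 4-fold and with the GC trend removed. The 4 lower isotypes became 2 at 4-fold, where the beta sum (-1.17) no longer passed. Tubb5 passed 2-fold under 4 settings (column sum, 75th percentile, other control, GC trend removed). The cause of these changes was not tested, beyond the limit itself at 4-fold. In the Myod1 comparison the column sum moved the median of all genes by -0.28 and the 75th percentile by -0.12. The share of higher genes among those past 2-fold was 65.0% as deposited, 39.4% with the column sum and 52.7% with the 75th percentile. With 1 library per group, depth limits mainly Tubb2b, on 35 to 90 reads outside the Myod1 library.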
